A study of Homo sapiens with 7 samples.

Results

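The kallikrein-related peptidase genes lie side by side on chromosome 19, and 9 of them around KLK3 are described here in 3 human cancer cell lines: KLK1, KLK15, KLK3, KLK2, KLK4, KLK5, KLK6, KLK10 and KLK11. They are 9 of the 20163 protein-coding genes examined. A loop, a pair of different anchors on 1 chromosome joined by sequenced read pairs, was assigned to a gene when an anchor overlapped a 500 bp window centred on any annotated start site of that gene. These genes had 12 of the 163530 loops in Ishikawa, 0 of the 42027 loops in T-47D and 61 of the 149226 loops in LNCaP.

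The contacts were measured by H3K27ac HiChIP, which joins DNA ends that lie close together in the nucleus and then pulls down chromatin acetylated at lysine 27 of histone H3, a mark of active promoters and enhancers. Ishikawa is an endometrial adenocarcinoma line, sampled with vehicle (DMSO, 2 samples) or with 10 nM 17β-estradiol (E2) for 1 h (2 samples). T-47D is a breast ductal carcinoma line with 1 sample, and LNCaP is a prostate carcinoma line with 2 samples. The labels give no treatment for the T-47D and LNCaP samples. The samples and treatments of a line were combined into 1 loop list, so the values below carry no replicate error, and DMSO and E2 are not compared. Ishikawa chromatin was cut with DpnII and T-47D and LNCaP chromatin with MboI, enzymes with the same GATC site. Ishikawa was also sheared and sequenced differently from the other lines, and more deeply, and these differences cannot be told apart from the cell line in a comparison with it. The lists held 1040329 read pairs in loops for Ishikawa, 351260 for T-47D and 1805322 for LNCaP. Of 9 genes that mark the tissues of origin, such as HOXB13 for prostate, GATA3 for breast and PAX8 for endometrium, 9 had their highest share of read pairs in the line they mark.

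Kallikreins are secreted serine proteases made as inactive precursors. KLK3 encodes prostate-specific antigen, which liquefies the seminal clot, and KLK2 encodes a trypsin-like protease that can activate the KLK3 precursor. KLK3 and KLK2 are textbook targets of the androgen receptor in prostate epithelium, and LNCaP cells express both. The genes on the far side of the cluster, KLK5 to KLK11, are known mainly from skin and other epithelia, and KLK6 also from brain.

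The promoters of KLK3 and KLK2 are shown because both genes are transcribed in the same direction, resemble each other in sequence and were covered by a single LNCaP anchor. Each sequence is the 250 bases before the start site of the canonical transcript on GRCh37 (hg19), read 5′ to 3′. Capitals mark matches to AGAACA, the half-site of the androgen receptor element, and to TATAAA, searched on both strands, so that TTTATA is a TATAAA match on the opposite strand.
KLK3 promoter, chr19:51357921-51358170, plus strand: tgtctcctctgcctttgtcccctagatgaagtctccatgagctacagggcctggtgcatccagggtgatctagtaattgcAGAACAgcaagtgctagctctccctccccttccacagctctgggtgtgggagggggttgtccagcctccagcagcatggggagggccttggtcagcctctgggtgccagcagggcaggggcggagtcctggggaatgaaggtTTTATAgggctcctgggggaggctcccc
KLK2 promoter, chr19:51376445-51376694, plus strand: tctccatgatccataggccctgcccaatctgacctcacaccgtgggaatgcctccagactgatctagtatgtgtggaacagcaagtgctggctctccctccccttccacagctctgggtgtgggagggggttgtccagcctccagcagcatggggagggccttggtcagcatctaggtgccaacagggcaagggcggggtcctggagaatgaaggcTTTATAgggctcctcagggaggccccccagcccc

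In a global alignment the KLK3 and KLK2 promoters shared 211 identical bases, 84.4% of the 250. The KLK1 promoter reached 76% with KLK2 and 74.4% with KLK3, and all other pairs of the 9 gave 55.2% to 63.6%. The AGAACA half-site of KLK3 began at position -170 from the start site, as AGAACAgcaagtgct. KLK2 had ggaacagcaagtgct at the aligned position, which differs by A1G, counted from 1 at the first base of the KLK3 half-site. KLK2 therefore had no exact half-site match in this window, which says nothing about binding there. AGAACA occurred in 2 of the 9 promoters, those of KLK3 and of KLK1 (at position -179), and in 9.0% of the 20163 promoters of the same length. TATAAA occurred in 3 of the 9, KLK15, KLK3 and KLK2, beginning at positions -30, -28 and -34, and in 9.4% of all promoters. The forkhead motif TGTTTNC occurred in none of the 9 and in 12.1% of all promoters.

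In LNCaP, the promoters of KLK15, KLK3, KLK2 and KLK4 fell in 1 anchor and so have identical values: 61 loops and 2936 read pairs. KLK1, KLK5, KLK6, KLK10 and KLK11 had no loop in LNCaP. Across all protein-coding genes, 58.1% had at least 1 promoter loop in LNCaP, against 4 of the 9 kallikrein genes, so the share of genes with a loop was not high here, while the number of read pairs was: only 22 genes had more. The genes with a loop do not count as 4 observations, since they share every loop. Their 2936 read pairs made up 0.163% of the list, or 1626 read pairs per 1000000 of the list (RPM, 95% Wilson interval 1569 to 1686, which covers counting error only), and 4.11% of the read pairs on chromosome 19.

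In Ishikawa the share of genes with a loop was again near that of all genes, and the read pairs were few. KLK15, KLK3, KLK4, KLK5 and KLK11 had promoter loops, 5 of 9 against 57.3% of all genes, with 78 read pairs in all, or 75 RPM (95% Wilson interval 60.1 to 93.6). KLK11, which encodes a trypsin-like kallikrein, had the most, with 35 read pairs in 4 loops. KLK4, which encodes a protease known from maturing tooth enamel, had 27 read pairs in 4 loops. KLK15 had 13 in 3 loops, KLK3 6 in 2 loops and KLK5 3 in 1 loop. KLK2 had none. With canonical start sites alone, KLK15 kept 1 loop of 7 read pairs. KLK5 had no loop when the anchor had to cover the start site base itself. In T-47D none of the 9 genes had a promoter loop, against 49.2% of all genes. T-47D had the fewest read pairs in all, and loops of fewer than 3 read pairs were removed from every list, so a weak contact cannot be told from an absent one.

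**Figure D1:**
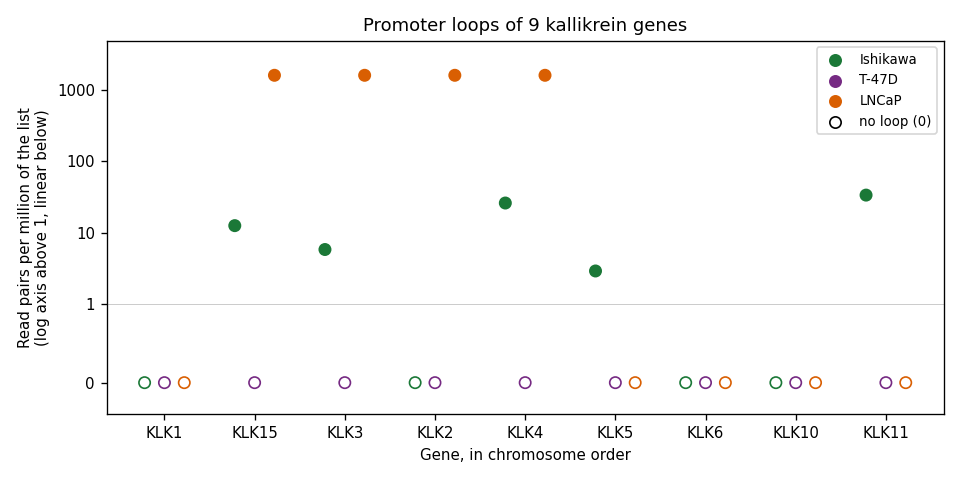
Read pairs in promoter loops of each kallikrein gene per 1000000 read pairs of the list (log axis above 1, linear below), for Ishikawa, T-47D and LNCaP; open circles are genes with no loop. KLK15, KLK3, KLK2 and KLK4 sit at 1626 in LNCaP because they share 1 anchor, and the Ishikawa values range from 2.88 (KLK5) to 33.6 (KLK11).

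Set against Ishikawa, the share of read pairs in LNCaP was 282-fold higher at KLK3, 130-fold higher at KLK15 and 62.7-fold higher at KLK4. These folds are not corrected for anchor width. The shared LNCaP anchor was 76.7 kb wide, and the Ishikawa anchors of these genes were 4.44 to 5.37 kb wide. Over the interval of the LNCaP anchor the share was 1626 RPM in LNCaP and 29.8 RPM in Ishikawa. KLK2 had no Ishikawa loop. Counted there at 3 read pairs, the lowest listed value, KLK2 was 564-fold higher in LNCaP. That minimum held within each of the 4 sections of the Ishikawa list, so an unlisted loop could hold up to 8 read pairs in their sum, which would give 211-fold. Of the 6 kallikrein genes with a loop in either list, 4 were at least 4-fold higher in LNCaP, against 36.6% of the 14877 genes compared. These 4 share 1 LNCaP anchor and so count as 1 observation, and with canonical start sites alone 2 genes passed. Against T-47D, counted at 3 read pairs, each of the 4 was 190-fold higher, whereas 12.0% of 12708 genes passed 4-fold. This fold is not a lower limit, since several unlisted loops of a gene could together hold more than 3 read pairs. Over the interval of the LNCaP anchor T-47D had 11.4 RPM. KLK11 went the other way, 20.2-fold higher in Ishikawa than in LNCaP counted at 3 read pairs, which again is not a lower limit. It was 1 of 6 genes past 4-fold in that direction, against 24.6% of all genes compared. KLK5 was at the minimum of 3 read pairs in Ishikawa and had no loop in LNCaP, so no fold is given. KLK1, KLK6 and KLK10 had no promoter loop in any list, as was the case for 4864 protein-coding genes (24.1%).

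The LNCaP anchor spanned chr19:51337325-51414040, 76.7 kb, and was the widest of the 43549 anchors in that list, where the median width was 3.23 kb and the next widest was 57.9 kb. It began inside KLK15, held KLK3, KLK2 and the pseudogene KLKP1 whole, and ended inside KLK4. Both ends lay at GATC, capitals below, as did all 16 ends of the 8 anchors assigned to these genes in the 3 lists. The sequences around the ends are given to place them exactly.
Left end, chr19:51337312-51337341: ggtctggaatctgGATCctggagtcgggcc
Right end, chr19:51414028-51414057: agccgtgtctgggGATCttcagcccaagtc

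Which genes this anchor is assigned to depends on the start sites used. The canonical start sites of KLK3 and KLK2 lay 20.8 and 39.4 kb inside its left end. The canonical start of KLK15 lay 495 bp outside the left end and that of KLK4 611 bp outside the right end, and both genes were assigned to it only through alternative start sites. With canonical start sites alone, an alternative chosen after the data were seen, KLK3 and KLK2 kept all 61 loops and KLK15 and KLK4 had none in LNCaP. With 1 start site per gene, the 5′ end of the gene, KLK15, KLK3 and KLK2 kept all 61 loops and KLK4 had none. KLK1, which encodes tissue kallikrein and whose start lay 10.3 kb beyond the left end, was outside under each of these rules. GATC sites were about as dense in the anchor (3.12 per kb) as on the chromosome (3.07 per kb). Of its 75-base words, 0.454% occurred more than once on chromosome 19. At the LNCaP read length nearly all of the anchor was therefore unique on that chromosome. The value is for the whole anchor, and none was computed for KLK3 or KLK2 alone. Their promoters, printed above, share an identical run longer than 75 bases. AGAACA occurred 36 times on either strand, 0.469 per kb against 0.646 per kb of the chromosome, and AGAACA followed after 3 bases by its reverse complement occurred 0 times in the anchor and 12 times on the whole chromosome.

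The values were also set against the width of the anchor. Per kilobase the anchor had 38.3 read pairs, against a median of 9.14 over all LNCaP anchors, and was above 90.6% of them. Its 61 partners came to 0.795 per kilobase, below the median of 1.4. The next 10 widest anchors had 21 to 63 partners (median 49) and 288 to 9887 read pairs (median 6449). The kallikrein anchor thus had more partners than the median of these other very wide anchors, near the top of their range, and fewer read pairs than their median.

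**Figure D2:**
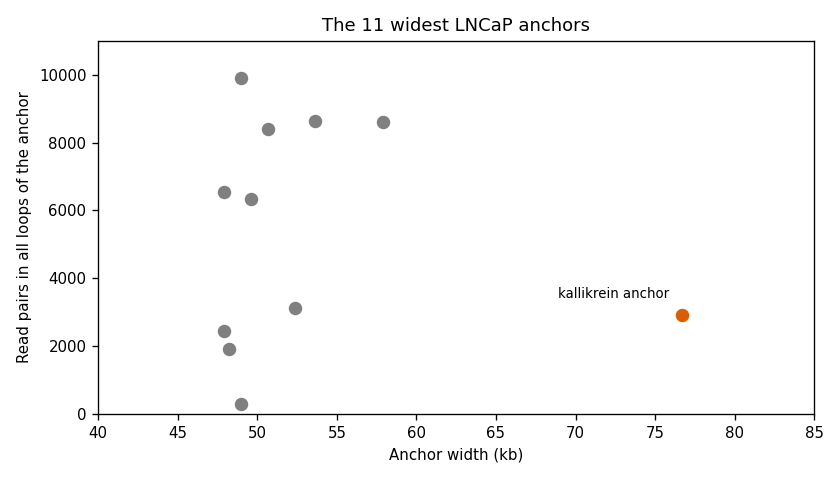
Read pairs in all loops of an anchor against its width in kb, for the 11 widest LNCaP anchors, 1 point each. The kallikrein anchor is the widest at 76.7 kb, and its 2936 read pairs lie below the median of 6449 for the other 10.

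The loops of this anchor were concentrated in a pair of neighbours that flank it. For this anchor, upstream and downstream follow the direction of KLK3 and KLK2 transcription, toward higher coordinates. The strongest joined it to chr19:51295214-51310103, an anchor of 14.9 kb centred 73.0 kb upstream, by 1509 read pairs, 51.4% of the total. This was the 13th strongest loop of the LNCaP list and the strongest on chromosome 19. That partner covered the promoter of SMIM47, which encodes a small membrane protein, and overlapped the acid phosphatase gene ACP4, the pseudogene C19orf48P and the small nucleolar RNA genes SNORD88A, SNORD88B and SNORD88C. The second joined it to chr19:51422838-51426716, 3.88 kb of intergenic sequence between KLK4 and KLK5 centred 49.1 kb downstream, by 723 read pairs, and ranked 57th in the list. Together they held 76.0% of the read pairs. Among LNCaP loops whose span was within 10% of theirs, the median was 6 read pairs, so these loops stood 252 and 120 times above it. After division by the product of the anchor widths they stood 3.76 and 6.09 times above the corresponding median. Spans run between anchor centres, so this wide anchor lay closer to its partners, edge to edge, than narrow anchors of like span do. It ended at 51414040 and the downstream partner began at 51422838, and the gap to the upstream partner was 27.2 kb. Neither comparison corrects for this.

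Both flanking anchors turned mainly to the kallikrein anchor: it took 93.1% of the 1620 read pairs of the upstream anchor and 89.6% of the 807 of the downstream one. They were also joined to each other across the kallikrein anchor, by 73 read pairs. Between the upstream partner and the kallikrein anchor lay 27.2 kb without any LNCaP anchor, which held KLK1. Beyond the downstream partner, as far as KLK14, there was 1 more LNCaP anchor, at chr19:51572800-51575443 between KLK13 and KLK14, and it was the third strongest partner with 62 read pairs. KLK5 to KLK13 thus lay between partners of the kallikrein anchor and held no LNCaP anchor themselves.

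**Figure D3:**
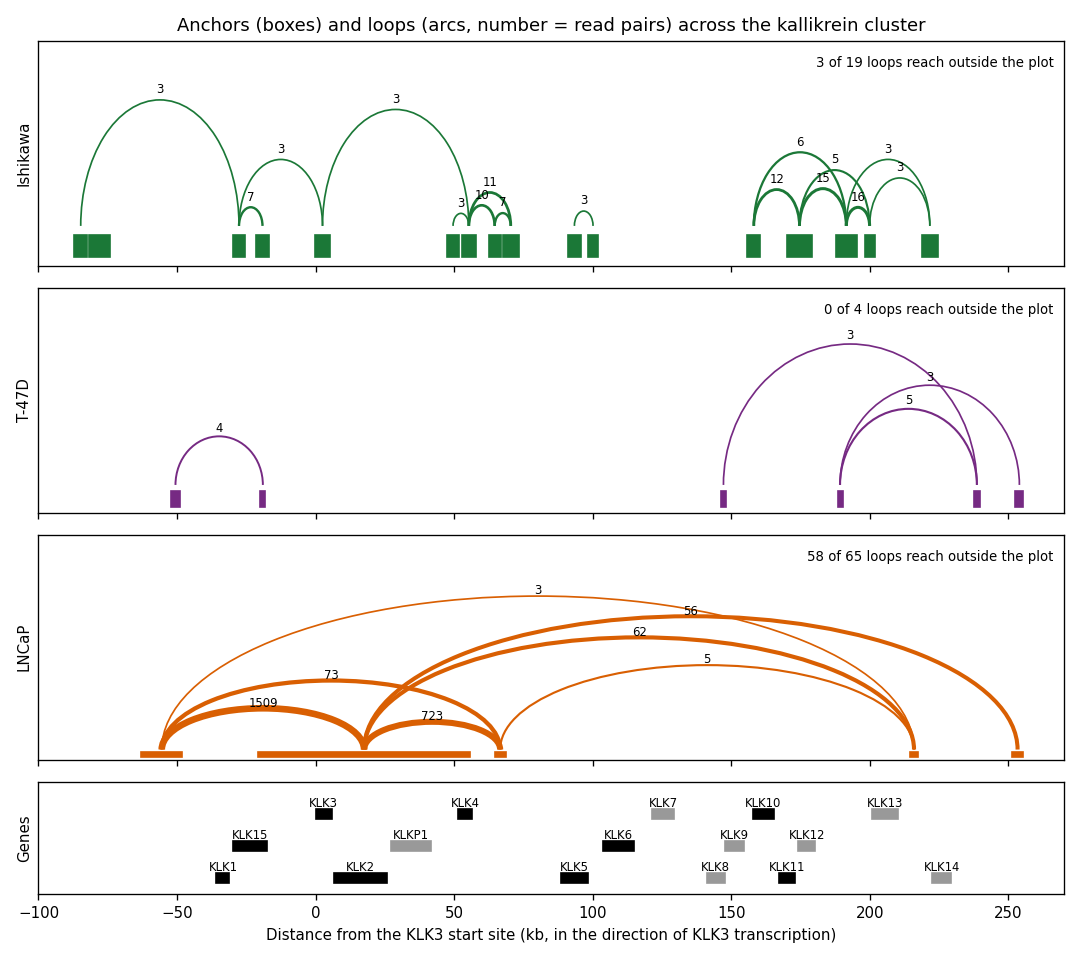
Anchors (boxes) and loops (arcs between anchor centres, with their read pairs) across the kallikrein cluster in the 3 lists, against distance in kb from the KLK3 start site; black genes are the 9 described and grey ones the other kallikreins. LNCaP has 1 wide anchor with arcs of 1509 and 723 read pairs, whereas Ishikawa has several narrow anchors with arcs of 3 to 16.

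The other 59 partners held 704 read pairs, with a median of 7, and 9 of them were at the minimum of 3. Of the 61 partners, 37 lay upstream with 1933 read pairs and 24 downstream with 1003. Spans ran from 49.1 to 1879 kb with a median of 1021 kb, whereas the median over all loops on chromosome 19 was 103 kb. Within 100 kb the anchor had 2 partners with 2232 read pairs, and between 1 and 2 Mb it had 33 partners with 208. Compared with LNCaP loops of like span, 48 of the 61 were above the median, 10 equal to it and 3 below, with a median ratio of 1.75. Per product of anchor widths, 4 of the 61 were above it and the median ratio was 0.283. Most of the long loops were therefore above their span median before the width of the anchor was taken into account, and below it afterwards.

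**Figure D4:**
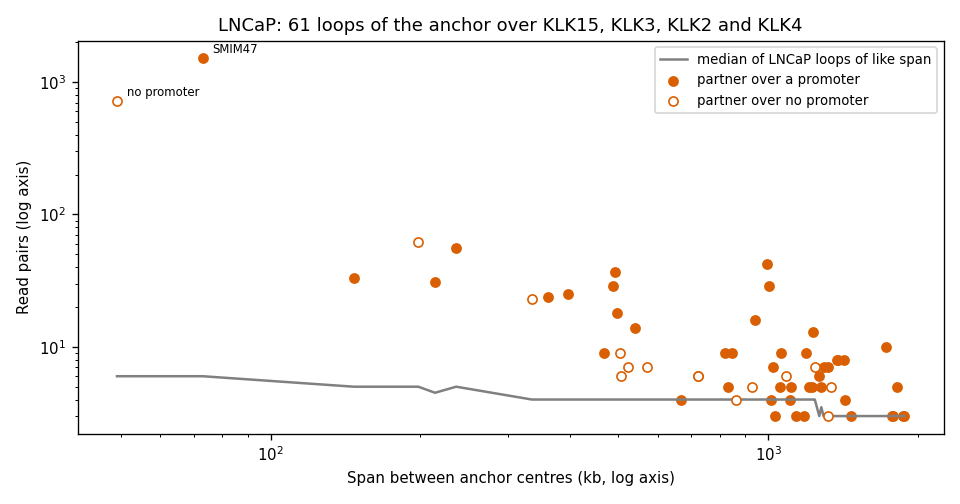
Read pairs (log axis) against span in kb (log axis) for the 61 LNCaP loops of the anchor over KLK15, KLK3, KLK2 and KLK4. Filled points have a partner over a promoter of a protein-coding gene, and the line is the median of LNCaP loops of like span. The loops of 1509 and 723 read pairs stand apart from the other 59, which reach 62 at most.

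Of the 61 partners, 46 covered a promoter of a protein-coding gene (75.4%, against 61.7% of the 1435 LNCaP anchors on chromosome 19), with 2057 read pairs. Together they held the promoters of 60 protein-coding genes. CTU1, a tRNA-modifying enzyme gene next to the cluster, had 56 read pairs. CLDND2, ETFB and ENSG00000269403 shared 1 anchor with 37 read pairs, and ETFB encodes a mitochondrial electron carrier. CLEC11A, which encodes a secreted growth factor, had 33, NR1H2, the oxysterol receptor LXR beta, 32, and C19orf81 31. The anchor of CTU1 had 63 read pairs in all, 88.9% of them with the kallikrein anchor. Zinc finger genes, which fill much of this chromosome arm, made up 12 of the 60 genes, in 11 anchors with 3 to 9 read pairs each. Their share among the other LNCaP anchors of the chromosome is not given, so the count shows no preference for them. Of the 1830 possible pairs among the 61 partners, 202 (11%) were joined to each other in LNCaP. The share among other anchors at like distances is not given, so this count does not show that the partners were unusually connected.

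Partners of the LNCaP anchor overlapped T-47D anchors more often than LNCaP anchors on chromosome 19 in general did, and Ishikawa anchors less often. In T-47D 46 of the 61 partners (75.4%) overlapped an anchor, against 53.5% of all LNCaP anchors on chromosome 19, and in Ishikawa 28 (45.9%) did, against 53.2%. Few of the loops themselves were listed there. Of the 61 loops, 1 (1.64%) had a counterpart in T-47D, a loop whose anchors overlapped both of its own, against 17.3% of the 6039 LNCaP loops on chromosome 19. The loops of the kallikrein anchor were long, and among loops over 500 kb the counts were 0 of 48 against 8 of 444. The T-47D counterpart was a loop in which 4 read pairs joined chr19:51305817-51309406, over C19orf48P, to chr19:51338265-51340030 inside KLK15. This is the counterpart of the LNCaP loop of 1509 read pairs. Its anchor missed the 500 bp promoter windows of KLK15 and entered the count only with windows of 2 kb. In Ishikawa 1 of the 61 had counterparts, the loop of 723 read pairs, against 7.62% of the LNCaP loops on chromosome 19, and over 500 kb the counts were 0 of 48 and 0 of 444.

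The Ishikawa loops had separate anchors over promoters of KLK15, KLK3 and KLK4, which the LNCaP anchor merged. KLK2 had no Ishikawa anchor over a promoter. KLK4, which is on the minus strand, was joined from chr19:51410904-51416013, over its canonical start, to a pair of anchors on its upstream side. These were chr19:51425788-51431427 with 11 read pairs and chr19:51420615-51424984 with 10. Both overlap the LNCaP partner at 49.1 kb. KLK3, at chr19:51357990-51363354, was joined to KLK15 by 3 read pairs and to KLK4 by 3, the minimum of the list. The KLK15 promoters at chr19:51328258-51332830 and chr19:51336794-51341229 were joined to each other by 7, and the first of them to the promoter of GPR32, which encodes a G protein-coupled receptor, by 3. Contacts between KLK15, KLK3, KLK2 and KLK4 could not be listed for LNCaP, since an anchor paired with itself is not in that list. Over the interval of the LNCaP anchor, 4 Ishikawa loops left it with 31 read pairs, or 29.8 RPM, 1 T-47D loop left it with 4, or 11.4 RPM, and 61 LNCaP loops left it with 2936.

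On the other side of the cluster, KLK11 was the only kallikrein gene with an Ishikawa promoter loop apart from KLK5. Its anchor, chr19:51528439-51537136, reached into KLK12. It was joined by 15 read pairs to chr19:51545921-51553454, which lies between KLK12 and KLK13 and holds no promoter of a protein-coding gene. By 12 it was joined to chr19:51514026-51518590 over the body of KLK10. Loops of 5 read pairs to KLK13 and of 3 to SIGLEC17P, a Siglec pseudogene beyond the cluster, made up the rest. The anchor at chr19:51545921-51553454 was also joined to KLK13, by 16 read pairs, the most of any Ishikawa loop in the cluster and one that does not involve KLK11. The loop of 15 was 2.5 times the median of Ishikawa loops of like span and above 86.9% of them. KLK10 was thus touched inside the gene by a KLK11 loop while its own start sites had no anchor. KLK5, a skin protease gene, had 1 loop of 3 read pairs, to an anchor inside its own gene.

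The Ishikawa list consists of 4 sections, each sorted separately, and nothing states which sample a section holds. KLK11 had 11, 0, 10 and 14 read pairs in sections 1 to 4. KLK4 had 7, 0, 10 and 10, KLK15 had 3, 0, 7 and 3, and KLK3 had 3, 0, 3 and 0. KLK11, KLK4 and KLK15 were present in 3 of the 4 sections, whereas KLK5 was in section 4 only, with 3. Section 2 had no loop of these genes and was also the smallest, with 90130 read pairs against 239253 to 442087 in the others. Of the 12 loops, 7 occurred in 1 section, 3 in 2 and 2 in 3.

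**Figure D5:**
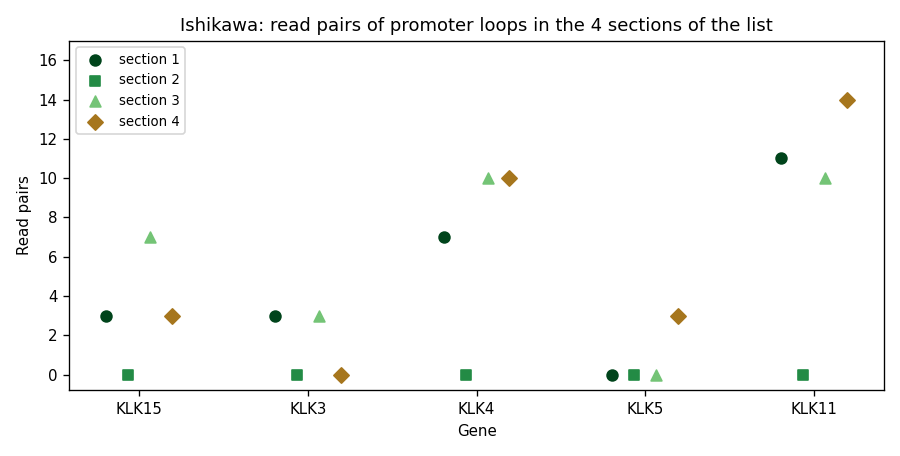
Read pairs in promoter loops of the 5 kallikrein genes with a loop in Ishikawa, for each of the 4 sections of the list. KLK11 is highest in sections 1 and 4 and ties with KLK4 at 10 in section 3, and section 2 is at 0 for all 5.

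Of the remaining kallikrein genes, KLK8 had 1 loop of 3 read pairs in T-47D, to an intergenic anchor at chr19:51595774-51597832 beyond KLK14, and KLKP1 lay in the wide LNCaP anchor. KLK7, KLK9, KLK12, KLK13 and KLK14 had no promoter loop in any list. From KLK1 to KLK14, 265 kb, anchors covered 27.4% of the sequence in Ishikawa (14 anchors), 2.13% in T-47D (3 anchors) and 31.4% in LNCaP (3 anchors). Similar coverage in Ishikawa and LNCaP went with 119 read pairs in 19 loops (114 RPM) and 3023 in 65 (1674 RPM). Of these read pairs, 107 in Ishikawa and 790 in LNCaP, not scaled for depth, joined anchors that both lay within the cluster.

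The genes elsewhere whose RPM over the 3 lists lay nearest to those of KLK3, by Euclidean distance on the log2 scale with 3 read pairs as the lowest value, were BDP1 (distance 0.38), PBOV1 (1.00) and HOXB13, PRAC1 and PRAC2 (1.01 each). BDP1 had 5, 0 and 3561 read pairs in Ishikawa, T-47D and LNCaP, and PBOV1 0, 0 and 3077. HOXB13, PRAC1 and PRAC2 shared the same values, 0, 0 and 3243. With 3 lists, this likeness says only that these genes too had high LNCaP values and few or no read pairs in the others.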

How the data were processed

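H3K27ac HiChIP reads were aligned by the authors to hg19 and paired with HiC-Pro, and loops were called with hichipper; versions are not given in the sources used here. Loops carry deposited counts of read pairs without scaling for depth, from which the authors had removed loops of fewer than 3 read pairs or weak support. Lists of 1040329 (Ishikawa), 351260 (T-47D) and 1805322 (LNCaP) read pairs in loops resulted. Rows of the Ishikawa list were summed per pair of anchors. Pairs of an anchor with itself and pairs between chromosomes were left out.

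Gene starts came from GENCODE 44 lifted to GRCh37. With 1 list per line no test was possible, and values are given as counts, shares with Wilson intervals, and folds of 4 or more. Like spans are within 10%. The genes and lists were chosen with earlier results of these data known. Named are the 9 genes, the other kallikreins, promoters with the most read pairs joined to them (some are not reported here), their strongest loops and the 5 genes nearest to KLK3. In simulated data, 200 of 200 promoter links planted on LNCaP anchors over 20163 genes were recovered. This checks the assignment of loops to genes only, not unlisted loops or genes merged in 1 wide anchor. Python 3.11.15, scipy 1.17.1 and Biopython 1.88 were used. Alternatives were minima of 5 and 10 read pairs, thinning, other promoter rules, spans of 20 kb to 1 Mb and Ishikawa loops in 2 or more sections.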

Additional observations from a re-analysis of the deposited data

Results flagged for a closer look

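Signals outside the loops of different anchors were found at 3 of the genes in Ishikawa, as read pairs that join an anchor to itself. They numbered 24 at KLK11, 9 at KLK15 and 3 at KLK3. The LNCaP list holds no such pairs, so they cannot be set beside LNCaP.

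In T-47D, 4 read pairs joined an anchor inside KLK15, outside its promoter windows of 500 bp, to the anchor over C19orf48P, although no promoter loop of the 9 genes was listed in that line.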

How the results depend on the processing

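No paired analysis was possible because each line has 1 list of combined samples. Of 71 values recomputed, 55 stayed within the counting interval of the share or within 1.5 times the count. With at least 5 read pairs per loop, LNCaP read pairs were 2889 (1810 RPM, against 1626 in the full list) and 3 Ishikawa genes had a loop; with at least 10, Ishikawa read pairs were 48 (104 RPM, against 75), LNCaP 2694 (2079 RPM), and 2 Ishikawa genes had a loop. Thinned to the shallowest list, LNCaP had 505 read pairs (1985 RPM) and 3 Ishikawa genes had a loop. Promoter windows of 2 kb gave T-47D 4 read pairs and 1 gene. Spans of 20 kb to 1 Mb left 17 read pairs in Ishikawa (29.4 RPM) and 2728 in LNCaP (2011 RPM). Ishikawa loops in 2 or more sections left 3 genes. In alternatives chosen after the data were seen, LNCaP without its strongest loop had 1427 read pairs (791 RPM), and with canonical start sites alone 2 genes had a loop in LNCaP, 2 were 4-fold or more above Ishikawa and 2 above T-47D. Under the higher minima, thinning and the span window, LNCaP read pairs fell while their share rose, since the total of the list fell more. In LNCaP 1 anchor carries every value, so its promoters cannot be resolved, and counts near 3 in Ishikawa and T-47D are at the limit of depth.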
